A study of Mus musculus with 6 samples.

Results

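The genes described here encode the proteins of the cytosolic ribosome, and carry the prefix Rpl (large subunit) or Rps (small subunit). Members were taken from the gene symbols of the count files, as every symbol of the form Rpl, Rps or Rplp followed by a number and at most 1 of the letters a, x or l, together with Rpsa. This gave 82 genes of 51826, of which 47 belong to the large subunit, 32 to the small subunit and 3 to the stalk (Rplp0, Rplp1 and Rplp2). Of the members 2, Rpl6l and Rps4l, are annotated as pseudogenes in GENCODE M21. Of the 82 genes, 80 had counts, and 75 passed the filter on low counts and were tested.

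Ribosomal proteins are assembled with ribosomal RNA in the nucleolus, and an intact ribosome carries a single copy of most of them, the stalk proteins being an exception. Their mRNAs begin with a run of pyrimidines, through which mTOR and the RNA-binding protein LARP1 control their translation, and Myc is known to raise transcription of their genes. Most have left retrocopies in the genome, which are intron-free DNA copies of the spliced mRNA.

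The 6 libraries came from mammary basal cells of pubertal C57B6/N mice of the SMAcreERT2/N1ICD genotype, which joins a tamoxifen-dependent Cre under a smooth muscle actin promoter to an allele of the Notch1 intracellular domain. All mice received tamoxifen once at postnatal day 21, and cells were taken 72 h later, at day 24. Mice were pooled by 2 or 3, and the GFPpos fraction (positive for green fluorescent protein) and the GFPneg fraction (negative for it) of the same pool were sorted, for 3 pools. Both groups therefore share genotype, strain, age and treatment and no group without the allele is among the samples. Cre acts in cells in which the smooth muscle actin promoter is active, and each library stands for a pool of animals. By its title, the series asks how active Notch switches the fate of mammary cells.

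GFPneg replicate 1 stood apart before any comparison. It held 611465 gene counts, against 9912610 to 16043492 in the other 5 libraries, and 788 of them lay in ribosomal protein genes, against 29570 to 87329. In it 48 of the 82 genes had 0 counts, against 3 to 6 elsewhere, and a count of 0 there allows up to 9.84 CPM (counts over library size, scaled by TMM factors), against 0.154 to 0.273 CPM elsewhere. Its TMM factor was 0.50, against 1.05 to 1.22 elsewhere, which raised its CPM relative to those of the other libraries. Values are therefore also given without that library. Markers of basal cells were present in every library (0 of 10 at 0 in each, summed level 7033 to 8445 CPM in GFPpos and 8709 to 14540 CPM in GFPneg libraries).

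Many members share their sequence with retrocopies, and a member's level counts only the reads assigned to its own row. Whether reads in copy rows came from the copies or from the members was not tested. The first 75 coding bases of 4 members are shown, a stretch as long as 1 sequenced read end, since they show the range from no difference between a gene and another row to many. They were read from GENCODE M21 transcripts on mm10, run 5′ to 3′, and capitals mark bases that differ from the gene named first. The members and copies shown here were chosen after their values were seen.
Rpl36a (chrX:134585654-134588062, plus strand): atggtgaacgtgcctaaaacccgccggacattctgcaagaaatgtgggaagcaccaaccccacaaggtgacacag
Rpl24 (chr16:55966275-55971435, plus strand): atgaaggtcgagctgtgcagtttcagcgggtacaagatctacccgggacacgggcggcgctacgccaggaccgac
Rpl4 (chr9:64173375-64178666, plus strand): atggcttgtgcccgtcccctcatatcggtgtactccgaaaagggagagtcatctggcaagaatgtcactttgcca
Gm5835, a processed pseudogene of Rpl4 (chr1:143093347-143094616, minus strand): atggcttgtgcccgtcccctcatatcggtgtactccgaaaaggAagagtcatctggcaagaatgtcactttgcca
Rps27 (chr3:90212522-90213651, minus strand): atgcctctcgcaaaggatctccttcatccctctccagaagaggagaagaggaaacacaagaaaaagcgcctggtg
Rps27l, its paralog (chr9:66946086-66949516, plus strand): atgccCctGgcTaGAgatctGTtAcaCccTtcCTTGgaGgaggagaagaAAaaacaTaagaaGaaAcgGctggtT

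Within these bases Rpl36a had 0 differences from the processed pseudogene Rpl36a-ps2 (chr3:145879020-145879340), Rpl24 had 0 from the processed pseudogene Gm9385 (chr9:116040593-116041064), and Rps27 had 0 from the intron-free gene Rps27rt (chr9:114982366-114982739). Over the 6 libraries the Rpl36a row held 231 reads and the Rpl36a-ps2 row 5509. The Rpl24 row held 22 reads and the Gm9385 row 2741, and the Rps27 row held 114 and the Rps27rt row 1526. In each of these families the copy's row held more reads than the row of the gene. The Rpl4 row held 50294 reads and Gm5835, with 1 difference in the stretch shown, 5736. Rps27l had 22 differences from Rps27 in the stretch shown.

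A copy was defined as an annotated retrocopy with at least 90% identity over at least 50% of the member's coding sequence. Only pseudogenes and genes spanning at most 2000 bases were kept. Longer genes that contain a copy, such as Wdr89 for Rplp2, were left out, so the copy shares do not include their reads. The annotation held 1033 such copies of 78 members, up to 84 for 1 member, and 831 of the copies had a row in the count files. Copy rows held more reads than the member's own row for 40 members, and for 36 of these a single copy row did. In each library 36.1% to 42.9% of the reads of members and copies lay in copy rows (39.3% ± 2.42 in GFPpos and 38.9% ± 3.58 in GFPneg, SD, n = 3 each), a difference within the spread of the libraries (2-sided exact permutation test, p = 0.9, where 3 against 3 cannot go below 0.1). Rpl8 and Rps3, which are among the most abundant members, had no copy row in the files.

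**Figure D1:**
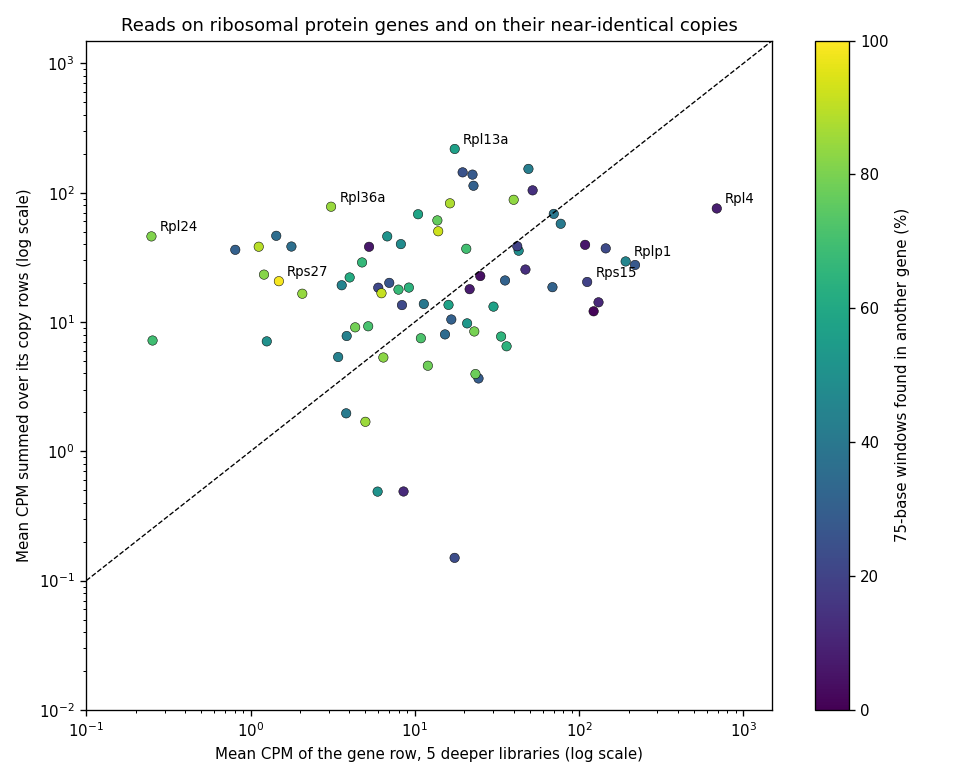
Mean level of each member's own row (horizontal axis, CPM over the 5 deeper libraries, log scale) against the summed mean level of its retrocopy rows (vertical axis, same unit and scale), with points coloured by the percent of the transcript's 75-base windows that occur in another gene. Rpl24, Rpl36a, Rps27 and Rpl13a lie above the dashed line of equal levels, and Rpl4, Rplp1 and Rps15 below it.

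Levels per length were set by dividing CPM by the length of all annotated exons of a gene in kb, a length that includes exons of transcripts with retained introns. The acidic stalk protein gene Rplp1, whose product helps recruit elongation factors, had the highest mean level, at 507, 464 and 288 CPM per kb in GFPpos replicates 1, 2 and 3 and 1110, 476 and 189 CPM per kb in GFPneg replicates 1, 2 and 3. Rpl8 followed at 451, 429 and 321 CPM per kb in GFPpos and 191, 385 and 237 CPM per kb in GFPneg libraries. Rpl4 stood at 442, 387 and 269 CPM per kb in GFPpos and 180, 374 and 245 CPM per kb in GFPneg libraries. The ranges of these 3 genes over libraries overlapped, so their order was not larger than their spread.

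Rps15, a small subunit gene, averaged 199 CPM per kb, Rpl32 averaged 114 CPM per kb and Rplp0, which anchors the stalk, 112 CPM per kb. Without GFPneg replicate 1 the first 6 genes kept their order, with means of 385 (Rplp1), 365 (Rpl8), 343 (Rpl4), 178 (Rps15), 136 (Rpl32) and 132 CPM per kb (Rplp0). Rpl4, Rpl8, Rps3, Rplp0 and Rplp1 together held 46.8% to 53.6% of all member reads in each library. The abundance of the group was thus carried by few rows in all 6 libraries.

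At the other end, Rpl24 had 19 reads in GFPneg replicate 2, 3 in GFPpos replicate 1 and 0 in the other 4 libraries. Rpl6l had 4 and 7 reads in GFPpos replicates 1 and 2, 7 in GFPneg replicate 2 and 0 in the others. Summed with its copies, the Rpl24 row went to 62.4, 39.5 and 37.0 CPM in GFPpos and 0, 60.8 and 31.2 CPM in GFPneg replicates 1, 2 and 3. Over the 80 members with counts the SD of the log2 mean CPM (5 deeper libraries) was 2.40 for the member rows and 1.75 once copy rows were added, and the median level went from 14.6 to 40.7 CPM.

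Members with more of their sequence found elsewhere tended to have lower levels. The 11 members with counts in which less than 10% of the 75-base windows occurred in another gene had a median of 25.3 CPM per kb. The 34 members with 10% to 50% shared windows had a median of 8.81 CPM per kb, and the 35 members with 50% or more had 3.00 CPM per kb. Levels in these classes ran from 0.333 to 336, 0.903 to 506 and 0.202 to 23.8 CPM per kb, so the classes overlapped widely. Copy rows held 9.36%, 47.1% and 72.6% of the reads of these classes. Across the 80 members the shared percent and the log2 level per kb had a Pearson r of -0.45 and a Spearman rho of -0.44, a description of points that share libraries. With the log2 fold change between the groups the shared percent had an r of -0.28 over the 75 tested members (-0.20 without GFPneg replicate 1, 77 members). Reads were not reassigned between rows, so levels are those of rows.

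**Figure D2:**
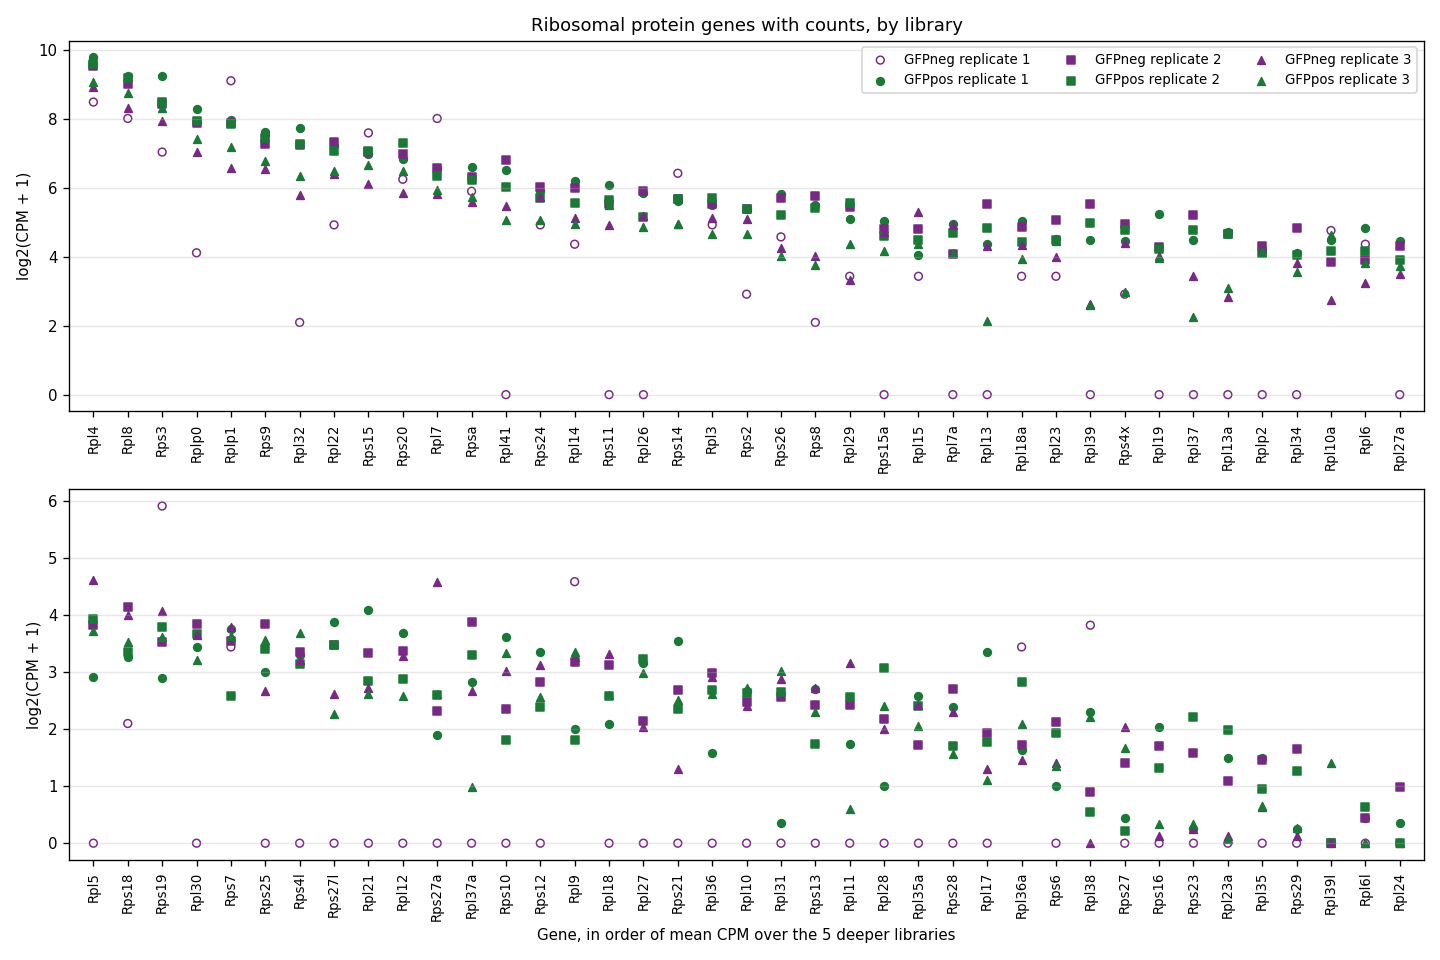
Level of the members with counts in each library, apart from those not reported here, as log2(CPM + 1), in order of the mean over the 5 deeper libraries. Colours give the group and symbols the replicate. Open circles mark GFPneg replicate 1, which lies at 0 for many genes. Among abundant genes, the highest of the other 5 libraries was 1.81 times the lowest for Rpl4 and 3.96 times for Rpl32.

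The part of all gene counts that lay in member rows was 0.535%, 0.501% and 0.365% in GFPpos replicates 1, 2 and 3 and 0.129%, 0.544% and 0.298% in GFPneg replicates 1, 2 and 3. The groups overlapped, with GFPneg replicate 1 lowest and GFPneg replicate 2 highest. The means were 0.467% ± 0.0896 and 0.324% ± 0.209 (SD, n = 3 each), and the difference was within the spread of the libraries (2-sided exact permutation test, p = 0.4). Without GFPneg replicate 1 the GFPneg mean was 0.421% and the difference fell from 0.143 to 0.0456 percentage points (exact p = 0.7). Without 5 abundant noncoding features, which held 69.2% of the counts of GFPneg replicate 1 and 22.7% to 34.7% elsewhere, the means were 0.666% and 0.509% (exact p = 0.3). GFPneg replicate 1 was then no longer lowest, at 0.419%, above GFPneg replicate 3 at 0.389%. With copy rows added, the mean shares of all gene counts were 0.774% ± 0.175 and 0.542% ± 0.379 (exact p = 0.5). In bulk samples of this kind, more cells with a given RNA content and more RNA per cell cannot be told apart.

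**Figure D3:**
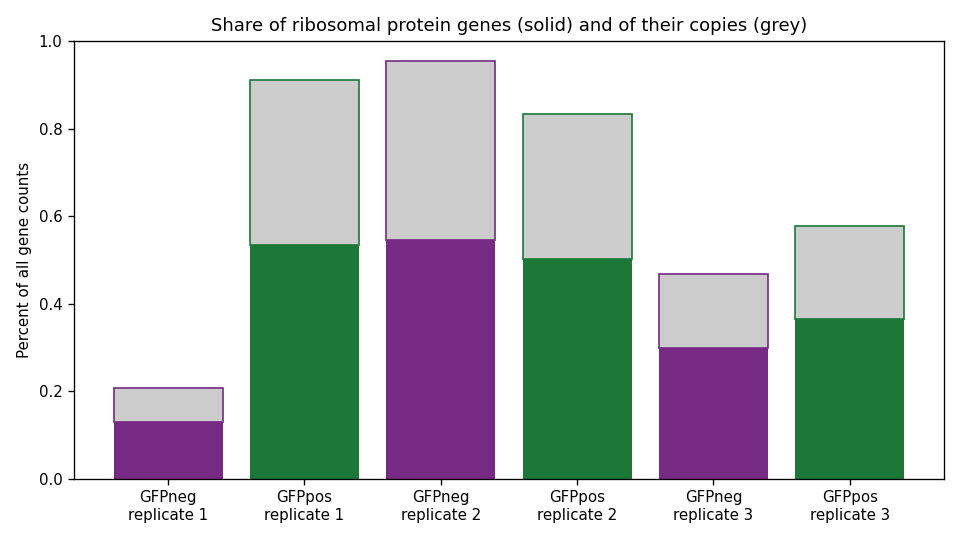
Percent of all gene counts in ribosomal protein gene rows (solid) and in their retrocopy rows (grey) for each library, ordered by replicate pair. GFPneg replicate 1 is lowest at 0.129% for the gene rows, and in pair 2 the GFPneg library (0.544%) lies above the GFPpos library (0.501%). All gene counts include the 5 abundant noncoding features. Without them (not plotted) GFPneg replicate 3 (0.389%) is below GFPneg replicate 1 (0.419%).

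No ribosomal protein gene passed the test between GFPpos and GFPneg cells. edgeR's quasi-likelihood test with Benjamini-Hochberg adjustment over 13873 genes called 0 of the 75 tested members higher and 0 lower at an adjusted p below 0.05, where the background of called genes was 0.0577% higher and 0.00721% lower. Of the 75, 0 had an unadjusted p below 0.05 in either direction, against 2.38% (higher) and 2.88% (lower) of all genes tested. DESeq2 also called 0 members (background 0.340% higher and 0.693% lower), and so did edgeR with the pools as a block (background 0.310% and 0.130%). Of the members, 49 had a positive and 26 a negative log2 fold change, with a median of 0.18, and 57.5% of all genes were positive with a median of 0.15. The SE of a member's log2 fold change ran from 0.39 to 1.93 with a median of 0.86, above the size of the group median.

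Leaving out GFPneg replicate 1 moved the centre of the group and made no call. The median log2 fold change was then 0.03, with 40 positive and 37 negative of 77 members, the median SE was 0.60 and the smallest adjusted p was 0.599 (Rpl10a), with 0 called (background 0.412% higher and 0.190% lower). With the pools as a block and without replicate 1, a fit of 2 pairs added after the data were seen, 0 were called against a background of 2.52% and 1.41%. Within pairs, the log2 ratio of CPM + 1 had a median over members of 2.09 in pair 1, -0.20 in pair 2 and -0.07 in pair 3, against 1.35, -0.03 and 0.05 over all genes tested. Pair 1, which holds GFPneg replicate 1, was thus the pair with the large ratio both for the members and for all genes. In that library 41 of the 75 tested members had 0 counts. Their pair 1 median therefore depends on the GFPpos level and the offset of 1, and is not a measured ratio. Large and small subunit genes had similar pair medians, at 2.19, -0.21 and -0.06 for 42 large subunit genes and 1.96, -0.21 and -0.19 for 30 small subunit genes.

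**Figure D4:**
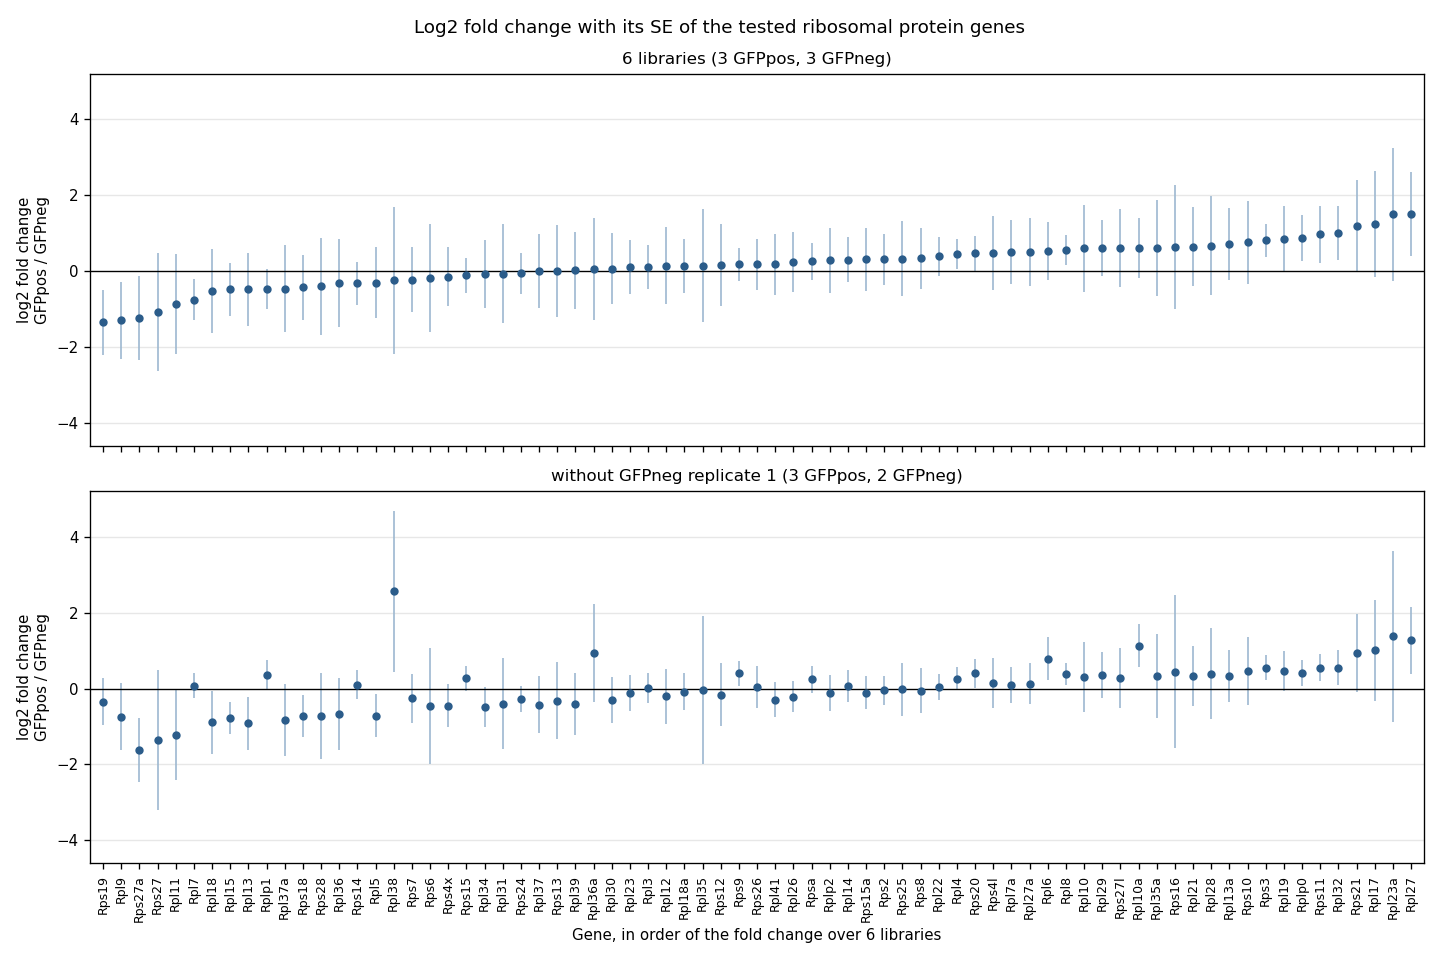
Log2 fold change of GFPpos over GFPneg with its SE for the members tested, apart from those not reported here, over 6 libraries (top) and without GFPneg replicate 1 (bottom), in the order of the top panel. The values scatter around 0 (the medians over all members tested are 0.18 and 0.03), and no member passed the threshold in either.

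Rps3, Rplp0, Rpl32, Rpl8 and Rpl27 were among the members with the smallest unadjusted p and a positive fold change. Rps3, a small subunit protein at the entry of the mRNA channel that also takes part in DNA repair, stood at 605, 364 and 318 CPM in GFPpos and 131, 350 and 246 CPM in GFPneg replicates 1, 2 and 3. The GFPpos library was the higher in each pair, by little in pair 2, and the groups overlapped. The means were 429 ± 154 and 242 ± 109 CPM (SD, n = 3 each), with a log2 fold change of 0.81 (SE 0.44, unadjusted p = 0.0835, adjusted p = 1, edgeR). Without GFPneg replicate 1 it was 0.54 (SE 0.33, adjusted p = 0.729).

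Rpl32, a large subunit protein gene long used as a reference gene, stood at 215, 155 and 79.8 CPM in GFPpos and 3.28, 153 and 54.2 CPM in GFPneg libraries, a log2 fold change of 1.01 (SE 0.71). Its lowest value, in GFPneg replicate 1, came from 1 read, and without that library the fold change was 0.55 (SE 0.47). Leaving out a library or a pair gave values from 0.20 (without replicate 1) to 2.21 (without replicate 2). Rpl8, which lies near the peptidyl transferase centre, stood at 613, 583 and 436 CPM in GFPpos and 259, 523 and 323 CPM in GFPneg libraries, with a log2 fold change of 0.56 (SE 0.39). Both genes were the higher in GFPpos cells of all 3 pairs, and in both the groups overlapped.

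Rpl27 and Rpl10 were the 2 members of 75 (2.67%) whose groups did not overlap, with GFPpos higher, where the background was 9.53%. Both had 0 reads in GFPneg replicate 1, where a 0 allows up to 9.84 CPM. That limit is above every GFPpos value of both genes, so their place relative to that library is not settled. Rpl27, a large subunit gene, stood at 7.97, 8.33 and 6.90 CPM in GFPpos and 0, 3.39 and 3.10 CPM in GFPneg replicates 1, 2 and 3. It rested on 88, 107 and 133 reads in GFPpos and 0, 66 and 34 in GFPneg libraries. All 3 GFPpos values lay above both deep GFPneg values, with a log2 fold change of 1.51 (SE 1.11, adjusted p = 1), and 1.27 without GFPneg replicate 1 (SE 0.88, adjusted p = 0.802, edgeR). Rpl10, a late-joining large subunit gene on chromosome X, stood at 5.35, 5.21 and 5.61 CPM in GFPpos and 0, 4.57 and 4.28 CPM in GFPneg libraries. Its gap between the groups was small, at a log2 fold change of 0.60 (SE 1.15, adjusted p = 1), was 0.30 without GFPneg replicate 1 and turned to -0.53 once its copy rows were added.

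Lower in GFPpos cells without overlap were 0 of 75 members (background 3.63%). Without GFPneg replicate 1, 3 of 77 members lay above (3.90%, background 11.8%) and 6 below without overlap (7.79%, background 13.9%). Among those below were Rpl15, Rpl18, Rpl36, Rplp2 and Rps18, named after their values were seen. Counting directions, 16 of 75 members were higher in GFPpos cells of all 3 pairs (21.3%, background 21.5%) and 1 of 75 was lower in all 3 (1.33%, background 8.07%). In GFPneg replicate 1, 41 of the 75 tested members and 6913 of the 13873 genes tested had 0 counts. Such genes cannot be lower in GFPpos cells of pair 1, nor lower without overlap over all libraries. The counts that use this library were therefore partly set by its depth. In pairs 2 and 3 alone, 20 of 77 were higher in both (26.0%, background 28.2%) and 32 of 77 lower in both (41.6%, background 29.6%).

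The 6 members with the smallest unadjusted p and a negative fold change were Rps19, Rpl7, Rpl9, Rps27a, Rplp1 and Rpl15. Rps19, a small subunit gene mutated in Diamond-Blackfan anaemia, stood at 6.43, 12.8 and 11.2 CPM in GFPpos and 59.0, 10.5 and 15.8 CPM in GFPneg replicates 1, 2 and 3. Its log2 fold change of -1.35 (SE 0.84, adjusted p = 1, edgeR) came with 18 reads in GFPneg replicate 1, and was -0.35 without that library (SE 0.61). Rpl7 stood at 95.4, 80.0 and 60.1 CPM in GFPpos and 259, 94.97 and 56.1 CPM in GFPneg libraries. In CPM scaled by TMM factors GFPneg replicate 1 alone was high. The log2 fold change of -0.75 (SE 0.54) was -0.21 with library size only and 0.07 without GFPneg replicate 1 (SE 0.33).

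Rpl9 stood at 2.99, 2.49 and 9.24 CPM in GFPpos and 22.95, 8.06 and 8.56 CPM in GFPneg libraries, with a log2 fold change of -1.29 (SE 1.01). This was -0.74 (SE 0.89) without GFPneg replicate 1, where it had 7 reads, and ran from -2.39 (without replicate 3) to -0.48 (without replicate 1). Copy rows held 72.3% of the reads of its family. Rps27a, which is made as a fusion with ubiquitin, stood at 2.72, 5.06 and 5.09 CPM in GFPpos and 0, 3.95 and 22.96 CPM in GFPneg libraries. GFPneg replicate 3 alone was high, and the log2 fold change of -1.23 (SE 1.11) was 0.64 without it and 0.06 with copy rows added. Rpl15, a large subunit gene, stood at 15.5, 21.6 and 19.6 CPM in GFPpos and 9.84, 27.0 and 38.5 CPM in GFPneg libraries. Without GFPneg replicate 1 its log2 fold change was -0.77 (SE 0.42, adjusted p = 0.666).

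The 3 stalk genes differed in the sign of their fold changes, and none passed edgeR's test. Rplp0 stood at 311, 248 and 170 CPM in GFPpos and 16.4, 236 and 131 CPM in GFPneg replicates 1, 2 and 3, with a log2 fold change of 0.88 (SE 0.61). Rplp1 stood at 253, 232 and 144 CPM in GFPpos and 554, 238 and 94.4 CPM in GFPneg libraries, at -0.47 (SE 0.53). In CPM scaled by TMM factors the GFPneg replicate 1 library was therefore lowest for Rplp0 and highest for Rplp1, from 5 and 169 reads. The low TMM factor of GFPneg replicate 1 raised both values. With library size only the log2 fold change of Rplp1 was 0.0719. Without it the log2 fold changes were 0.42 (SE 0.34) for Rplp0 and 0.35 (SE 0.39) for Rplp1.

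Rplp2, the partner of Rplp1 in the stalk dimer, was the steadiest member over the 5 deeper libraries, with a coefficient of variation of 6.44% where the median member had 38.3%. It stood at 17.7, 16.3 and 16.5 CPM in GFPpos and 0, 19.0 and 17.9 CPM in GFPneg libraries. The gene Wdr89, which contains an Rplp2 copy of 99.4% identity and was singled out after its values were seen, held 33535 reads in all and was left out of the summed rows. Rpsa, a small subunit protein also known as a laminin receptor, stood at 96.1, 74.7 and 52.7 CPM in GFPpos and 59.0, 79.6 and 47.7 CPM in GFPneg libraries. Its groups overlapped and its log2 fold change was 0.26 (SE 0.48).

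Members whose symbol ends in l are paralogs or copies of another member. Rpl10l, a testis paralog of Rpl10, and Rpl3l, a paralog of Rpl3 known from heart and skeletal muscle, had 0 reads in all 6 libraries. Rpl39l, a testis paralog of Rpl39, had 32 reads in GFPpos replicate 3 (1.66 CPM) and 0 in the other 5 libraries. The parents were present. Rpl3 stood at 44.7, 51.0 and 24.6 CPM in GFPpos and 29.5, 45.9 and 33.9 CPM in GFPneg libraries, and Rpl39 at 21.4, 30.6 and 5.04 CPM in GFPpos and 0, 45.6 and 5.19 CPM in GFPneg libraries. Rpl39 differed more between replicates than between groups, with values in both replicate 3 libraries below those of the other deep libraries.

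Rps27l, a paralog of Rps27 known as a p53 target, stood at 13.6, 10.1 and 3.79 CPM in GFPpos and 0, 10.1 and 5.10 CPM in GFPneg libraries, with a log2 fold change of 0.61 (SE 1.03), and 0.28 without GFPneg replicate 1. The row of Rps27 itself held less, at 0.362, 0.156 and 2.18 CPM in GFPpos and 0, 1.64 and 3.10 CPM in GFPneg libraries. With its copy rows, Rps27rt among them, Rps27 went to 32.4, 17.4 and 18.1 CPM in GFPpos and 6.56, 28.3 and 14.7 CPM in GFPneg libraries, above Rps27l in every library. The log2 fold change of Rps27 then went from -1.07 (SE 1.55) to 0.35 (SE 0.73). Rps4l stood at 8.79, 7.86 and 11.8 CPM in GFPpos and 0, 9.19 and 8.20 CPM in GFPneg libraries. Its parent on chromosome X, Rps4x, stood at 20.9, 26.4 and 6.96 CPM in GFPpos and 6.56, 29.8 and 20.0 CPM in GFPneg libraries. Rpl6, the parent of Rpl6l, stood at 27.5, 17.1 and 13.0 CPM in GFPpos and 19.7, 14.1 and 8.38 CPM in GFPneg libraries, higher in GFPpos cells of each pair, with a log2 fold change of 0.53 (SE 0.77).

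Adding copy rows changed single values and made no call. The test on summed rows called 0 of 79 members, the median log2 fold change was 0.27, and 57 members were positive and 22 negative. Rpl36a, named after its values were seen, stood at 2.08, 6.07 and 3.27 CPM in GFPpos and 9.84, 2.31 and 1.73 CPM in GFPneg libraries from its own row, a log2 fold change of 0.05 (SE 1.35). The GFPneg replicate 1 value came from 3 reads, and without that library the fold change was 0.93 (SE 1.29). With its copies it stood at 118, 101 and 59.9 CPM in GFPpos and 39.4, 79.8 and 45.6 CPM in GFPneg libraries, at 0.73 (SE 0.49), and the GFPpos library was the higher in all 3 pairs.

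The genes around the ribosome were read as lists for comparison, and 0 of their members were called by edgeR or DESeq2 in either direction. At an unadjusted p below 0.05 there were 2 of 37 translation factors (higher, background 2.38%). Lower at that level were 1 of 10 snoRNA host genes and 1 of 8 p53 checkpoint genes (background 2.88%). Mitochondrial ribosomal proteins, which build the separate ribosome of the mitochondrion, had 65 positive and 9 negative of 74 tested. Of all genes tested, 57.5% were positive. The median log2 fold change of this list was 0.72 (0.57 without GFPneg replicate 1), with pair medians of 3.05, 0.03 and 0.81. In GFPneg replicate 1, 60 of the 78 listed genes had 0 counts. The pair 1 median therefore rests largely on the GFPpos level and the offset of 1. The median of the cytosolic members was 0.18 beside it (0.03 without GFPneg replicate 1). Translation factors had 26 of 37 positive (median 0.21, and 0.23 without that library). Among them Eef2, the translocation factor, stood at 2027, 2222 and 1935 CPM in GFPpos and 590, 1705 and 1270 CPM in GFPneg libraries, with GFPpos above GFPneg without overlap, as for 9.53% of all genes tested. Its log2 fold change was 0.79 (SE 0.41, adjusted p = 1, edgeR), and 0.49 without GFPneg replicate 1. Eef2 was singled out after its values were seen.

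Ribosome assembly and nucleolar genes had 23 of 32 positive (median 0.31), RNA polymerase I genes 13 of 15 (0.27), and snoRNA host genes 7 of 10 (0.20). These medians were 0.33, 0.13 and -0.16 without GFPneg replicate 1. The mTOR pathway and its mRNA regulators had 10 of 14 positive (0.27), the Myc network 7 of 11 (0.21) and p53 checkpoint genes 5 of 8 (0.12), and without that library the medians were 0.0841, 0.24 and 0.0972. Myc itself stood at 410, 283 and 400 CPM in GFPpos and 167, 336 and 545 CPM in GFPneg libraries, lower in GFPpos cells of pairs 2 and 3. Ribosomal genes that the symbol rule leaves out had 3 of 6 positive (0.0671, and 0.00435 without that library). Of these Rack1, a small subunit scaffold protein gene, stood at 677, 500 and 384 CPM in GFPpos and 105, 490 and 332 CPM in GFPneg libraries. Fau, made as a fusion with a ubiquitin-like protein, had a log2 fold change of -1.27 (SE 1.15).

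**Figure D5:**
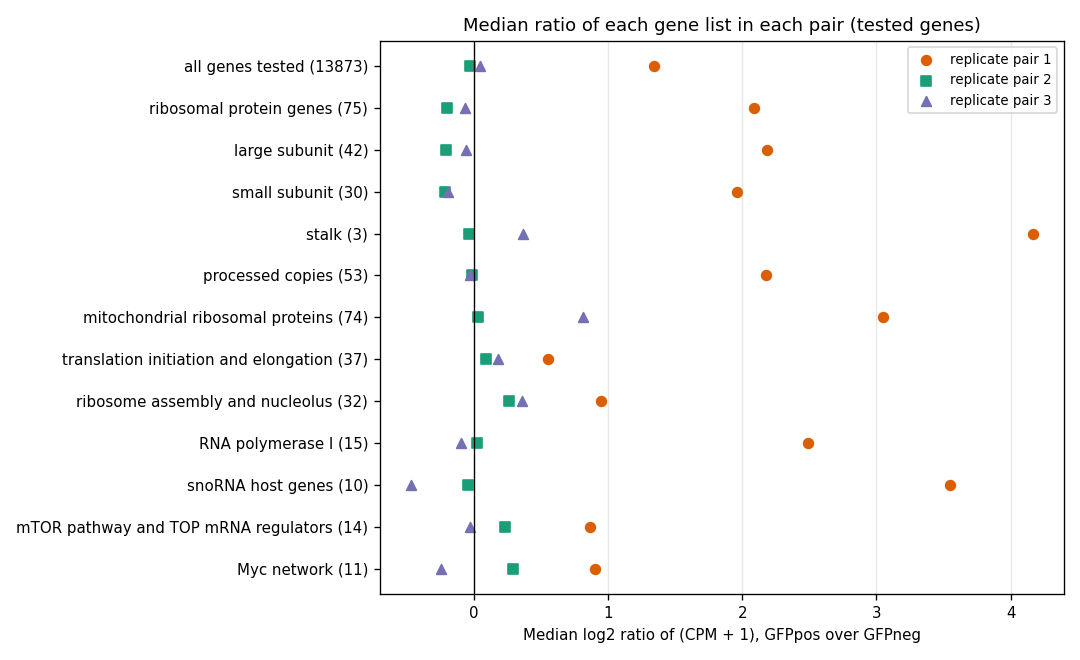
Median log2 ratio of (CPM + 1), GFPpos over GFPneg, of each gene list in each replicate pair (number of tested genes in brackets). Pair 1 lies to the right of pairs 2 and 3 for each list plotted, at 2.09 for the ribosomal protein genes, while pairs 2 and 3 lie near 0 for them (-0.20 and -0.07). Of these 75 genes, 41 had 0 counts in GFPneg replicate 1, so their pair 1 median depends on the offset of 1.

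Marker lists of other cells and states were summed in the same libraries. All 8 proliferation markers had positive fold changes (median 2.35, and 2.06 without GFPneg replicate 1). Their summed level was 1032 to 1886 CPM in GFPpos and 112 to 704 CPM in GFPneg libraries. The 112 CPM came from GFPneg replicate 1, where 5 of the 8 had 0 counts. Fibroblast markers were negative in 6 of 6 tested (median -1.83, summed 239 to 380 against 689 to 1681 CPM). Pericyte markers were positive in 4 of 5 (1.82, and 1.43 without GFPneg replicate 1, summed 160 to 612 against 42.6 to 138 CPM). The pericyte pair medians were 3.28, 0.38 and 2.16. The 42.6 CPM came from GFPneg replicate 1, where 5 of the 6 pericyte markers listed had 0 counts. Basal markers were negative in 9 of 10 (-0.71) and luminal markers positive in 10 of 12 (0.97, summed 511 to 982 against 236 to 532 CPM), although the luminal pair medians were 2.74, 0.48 and -0.19 and 8 of 12 luminal markers had 0 counts in GFPneg replicate 1. Endothelial markers were positive in 4 of 8 (-0.0139, summed 778 to 2195 against 546 to 1757 CPM) and Schwann markers negative in 4 of 5 (-1.37, summed 104 to 148 against 178 to 889 CPM). Of 8 immune markers only 2 passed the filter, both positive (1.81, pair medians -0.58, 1.96 and 2.80). All 8 summed to 9.88 to 60.2 against 3.49 to 59.0 CPM. In replicates 1, 2 and 3, 5, 3 and 3 of them had 0 counts in GFPpos and 6, 3 and 6 in GFPneg libraries. The 2 signs therefore show no direction for the list. With the 6 libraries edgeR called 0 genes of these 8 lists. DESeq2 called 1 proliferation marker higher (background 0.34%) and 1 Schwann marker lower (background 0.693%). At an unadjusted p below 0.05 were 5 of 8 proliferation, 3 of 5 pericyte and 3 of 12 luminal markers (higher, background 2.38%). Lower at that level were 4 of 6 fibroblast, 4 of 10 basal and 2 of 5 Schwann markers (background 2.88%). edgeR called, without GFPneg replicate 1, 1 of 10 basal and 1 of 6 fibroblast markers lower (background 0.19%). Their part in the values of the ribosomal protein genes was not tested.

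Promoters were searched for short motifs in windows from 250 bases before to 50 after the start, on both strands (RefSeq, GRCm38.p6). Windows were found for 60 members, 72 in all, and the comparison was with 32851 windows of all genes. GTGGGAA, the core motif of the Notch effector RBPJ, occurred in 5.56% of member windows and 6.38% of all windows. The Myc E-box CACGTG occurred in 11.1% and 7.15%, the ETS-type motif CCGGAAG in 36.1% and 8.86%, and the pyrimidine run CTTTCC in 36 of 72 member windows and 26.6% of all. GTGGGAA was found for Rpl23, Rpl36a, Rpl39 and Rpl3l. These are matches of letters and not sites. In the genome the members lie on 19 chromosomes, 4 of them on X, and 29 of them hold 56 snoRNA genes, which are cut from their introns.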

How the data were processed

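Total RNA was sequenced in 6 libraries. The files the authors deposited hold whole-number counts for each gene symbol, made with FastQC, cutadapt, TopHat2 and HTSeq on mm10 per the submitters' processing notes. For versions, annotation, strand and the treatment of reads with several alignments the sources used here give nothing, and the deposited row for such reads holds 0 counts in all 6 libraries. Antisense, overlapping and near-identical genes are therefore uncertain. Reads of no feature were 66.4% in GFPneg replicate 1 and 28.8% to 40.5% in the others. The 5 summary rows were left out.

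The test was edgeR 4.0.16 (R 4.3.3), by quasi-likelihood with TMM factors, the filterByExpr filter and a model of group alone, with Benjamini-Hochberg adjustment over all genes and a threshold of 0.05. The script was tested on simulated data. Alternatives were DESeq2 1.42.0, a replicate block, other scalings and filters, and leaving out each library and pair. Added after seeing the data were the block without replicate 1 and the summing of members with copies. Per the design text of the series, GFPpos and GFPneg cells of a replicate share 1 pool, so the sample numbers in the titles pair the libraries. The deviations of paired libraries from their group means correlated at -0.036, 0.122 and -0.0013. P-values of the group-only fits and permutation tests rest on the spread between libraries of a group, without the pairing. Those of the block fits rest on the spread left once differences between pools are taken out.

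Copies were found with BLAST 2.17.0 against GENCODE M21 transcripts (mm10), keeping pseudogenes and genes spanning at most 2000 bases. The principal transcript was searched for exact 75-base windows in other genes. The members and lists were chosen with earlier results of these data known. The rule for named genes took members called, up to 6 with the smallest p in each direction, the 6 highest and 3 lowest per kb, Rpsa, the stalk genes, and symbols ending in l with their parents. Others named were chosen after their values were seen. Some genes are not reported here by name, while their counts stay in the totals.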

Additional observations from a re-analysis of the deposited data

How the results depend on the processing

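In all 19 alternatives 0 ribosomal protein genes were called in either direction. Counts over all genes and the members' median moved. For all genes, against 8 higher and 1 lower, they were 43 and 18 with the replicate block, 51 and 104 with DESeq2, 78 and 91 with DESeq2 and the block, 65 and 236 with no low count filter, 5 higher with library size only, and 386 and 216 with the block without replicate 1, a fit of 2 pairs with few residual degrees of freedom. Leaving out 1 library or pair gave 2 to 63 higher (63 and 29 without GFPneg replicate 1, 2 without GFPpos replicate 3) and 1 to 68 lower (68 without replicate 3).

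The members' median ran from -0.13 (both fits without replicate 1) to 0.62 (without GFPneg replicate 2), and was 0.33 with library size only, which moved the median of all genes from 0.15 to 0.31. At an unadjusted p below 0.05, 2 of 75 members were higher with the block (408 of 13873 genes) and 5 of 75 without GFPneg replicate 2 (965 of 14537). There were 2 of 72 without replicate 2 (693 of 13579) and 1 of 80 with no low count filter (486 of 24729). In the other direction, 1 of 77 was lower without GFPneg replicate 3 (507 of 14826) and 1 of 77 with the block without replicate 1 (755 of 15346). Counts in brackets are of all genes tested in the same fit and direction. The smallest adjusted p over all fits was 0.0847, for Rpl13 with the block without replicate 1 (log2 -1.56). The cause of these shifts was not tested.

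Signs of named members turned, none of them called. With library size only Rplp1 was 0.0719, Rps15 0.278 and Rpl39 -0.0118. With copy rows Rps27a was 0.0564, Rps15 0.0331, Rpl10 -0.53, Rpl3 -0.13, Rps27 0.35 and Rps4x 0.13. With the block without replicate 1 Rplp1 was 0.30, Rps15 0.30, Rplp2 -0.15, Rps27l -0.19, Rpl39 -0.30 and Rpl3 -0.13. Leaving out a library or pair, the log2 fold change ran from -1.14 to 0.0705 for Rpl7, -1.72 to 0.638 for Rps27a, -0.90 to 0.35 for Rplp1, -0.43 to 0.27 for Rps15, -0.15 to 0.72 for Rplp2, -0.12 to 1.36 for Rps27l, -0.51 to 2.34 for Rpl39, -0.0898 to 0.376 for Rpl3 and -0.57 to 0.32 for Rps4x.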
